A study of Homo sapiens with 8 samples.

Results

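The 10 genes described here are MEIS1, PBX3, MEF2C, RUNX2, ZEB2, JMJD1C, FLT3, PROM1, CSPG4 and LGALS1, which are known for high expression in leukemias with a fusion of the MLL gene (KMT2A). They were chosen by name, and each was read from the transcript cluster annotated with its symbol. Where a symbol had several clusters, the one with the highest mean over the 8 arrays was used. All 10 of 10 genes had a cluster among the 17881 clusters of the table. Only JMJD1C had 2, and each of the 10 clusters used carries a single symbol.

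MLL is a histone methyltransferase that keeps developmental genes active. Its fusions join the DNA-binding part of MLL to proteins of transcription elongation complexes, so that genes normally switched off during blood cell maturation stay on. RS4;11, the line named in the labels, is an established B-cell precursor acute lymphoblastic leukemia line with a fusion of MLL to AFF1 (AF4), and leukemias of this kind are known for high MEIS1 and FLT3 and for the surface antigens PROM1 (CD133) and CSPG4 (NG2).

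Expression was measured on 8 Affymetrix exon arrays in 4 groups of 2 arrays. The groups were control shRNA with vehicle, control shRNA with prednisolone, BTG1 shRNA with vehicle and BTG1 shRNA with prednisolone. All cells were labelled RS4;11, were transduced with an shRNA vector and were exposed for 8 h. Prednisolone is a synthetic glucocorticoid, its dose is not stated in the labels, and BTG1 is an antiproliferative cofactor. The series asked how BTG1 knockdown alters the response to prednisolone. The labels do not state that the paired arrays of each group are from different cultures. All p-values below therefore refer to array-to-array spread, part or all of which may be technical.

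All values are log2 expression levels, so that a difference of 1 is a doubling. The background level of an array is the 95th percentile of 34 genes restricted to tissues such as liver, muscle, pancreas and skin on that array, and ran from 5.31 to 7.10. It is a reading aid, not a detection call, and the median of those genes was 3.77 to 4.83.

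The arrays labelled BTG1 shRNA did not have the profile of the control arrays. The cluster of BTG1 and LINC01619 was lower on them, by -2.06 (SE 0.20) under vehicle and by -2.64 (SE 0.20) under prednisolone on the log2 scale. NR3C1, which encodes the glucocorticoid receptor, was lower by -2.53 (SE 0.28) and -3.51 (SE 0.28). The CD3 chains of the T-cell receptor (CD3D, CD3E, CD3G) read 3.05 to 4.45 on the control arrays and 10.52 to 11.64 on the arrays labelled BTG1 shRNA. The B-cell receptor subunit CD79A read 9.89 to 10.15 on the control arrays and 4.83 to 4.92 on the others. Of 13 measured B-lineage markers 9 to 12 lay above the background level on the control arrays and 2 on each array labelled BTG1 shRNA. Their median level per array was 8.21 to 9.29 and 4.06 to 4.37. Of 14 T-lineage markers 2 to 3 lay above it on the control arrays and 13 on each of the others, with median levels of 3.65 to 4.21 and 8.79 to 9.25. The markers of a B-cell precursor that define RS4;11 were therefore largely missing from the arrays labelled BTG1 shRNA, and in every comparison between the shRNAs the shRNA and the lineage profile cannot be told apart. Myeloid markers lay above the background level in 0 of 11 cases on 7 arrays and in 1 case on the second vehicle array labelled BTG1 shRNA.

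Values spread least on control vehicle replicate 1, whose interquartile range was 2.95, compared with 3.39 to 3.80 elsewhere. Of the 10 genes, 8 read lower on replicate 1 than on replicate 2 in this group, as did 8 in the control prednisolone group. The median absolute difference between replicates was 0.68 for the 10 genes with control shRNA and vehicle, beside 0.44 over all clusters. In the other groups it was 0.20 to 0.33 for the 10 genes. With 2 arrays a group, the number of arrays limits precision.

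**Figure D1:**
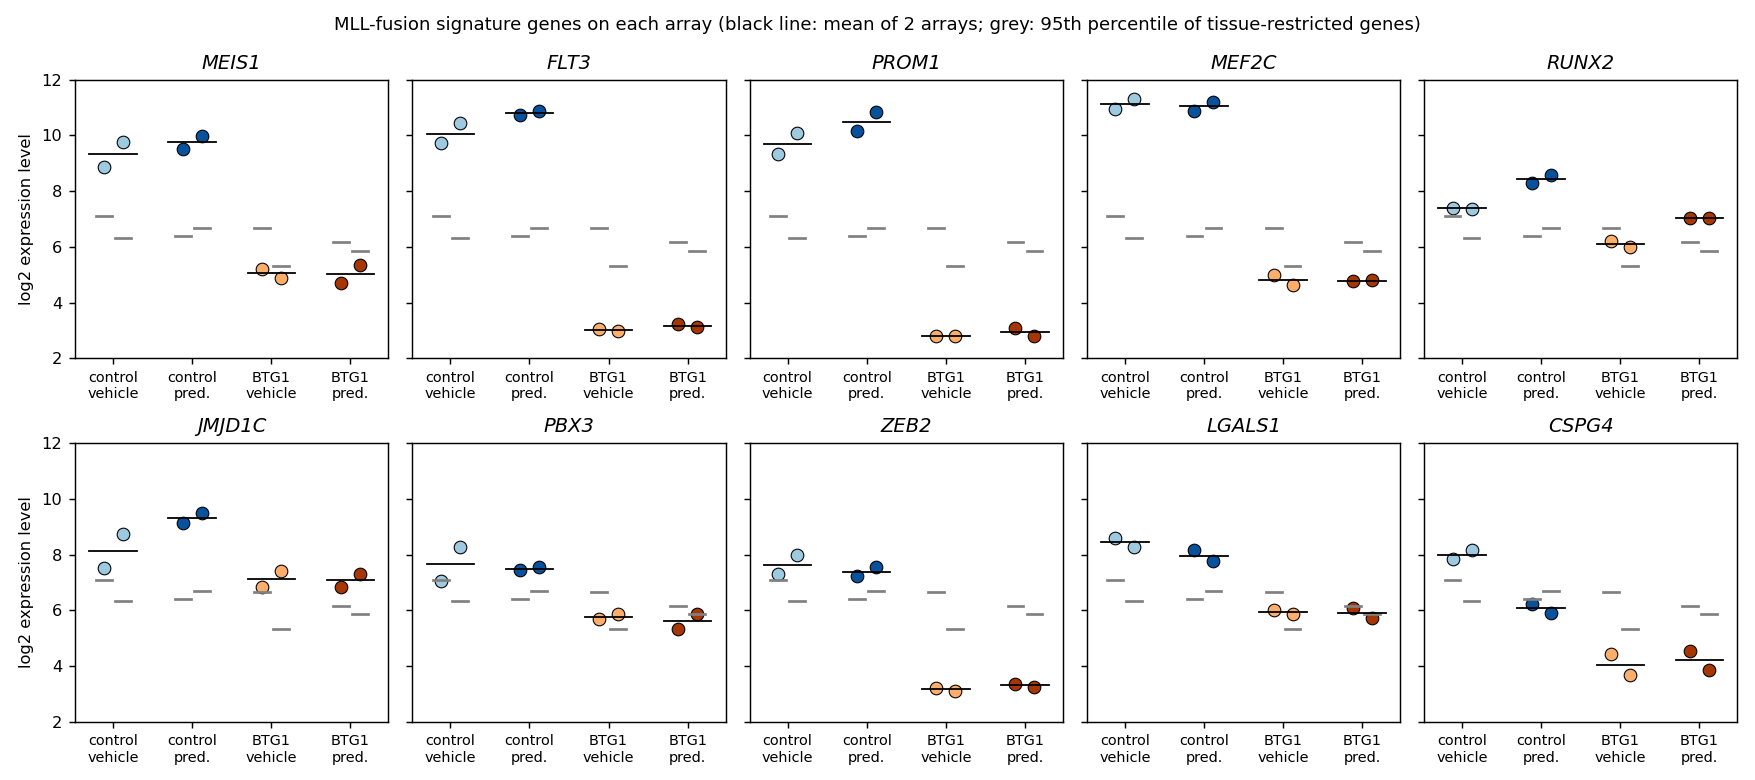
Log2 expression level (vertical axis) of the 10 genes on the 8 arrays, by group (horizontal axis); each point is an array, each black line the mean of 2 arrays, and each grey mark the background level of that array. All 4 arrays labelled BTG1 shRNA lie below all 4 control arrays for every gene, and the RUNX2 arrays with prednisolone lie above those with vehicle under both shRNAs.

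Promoter sequences are shown for genes on which the comparisons turn. They come from RefSeq (GRCh38.p14) and cover the 250 bases upstream of an annotated start, and 9 of the 10 genes had at least 1 entry, 21 in all (all but LGALS1). The part of MLL kept in its fusions includes a CXXC domain that binds unmethylated CpG, so CpG letters are the first feature shown. Capitals mark each CpG in the windows of MEIS1, FLT3 and the proximal start of RUNX2:
MEIS1, chr2:66434875-66435124, plus strand: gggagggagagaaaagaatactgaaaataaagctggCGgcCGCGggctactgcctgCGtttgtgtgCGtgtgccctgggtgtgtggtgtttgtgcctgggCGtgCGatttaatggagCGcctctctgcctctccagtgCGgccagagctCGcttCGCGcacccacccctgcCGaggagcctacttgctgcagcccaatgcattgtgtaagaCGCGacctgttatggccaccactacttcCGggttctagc
FLT3, chr13:28100577-28100826, minus strand: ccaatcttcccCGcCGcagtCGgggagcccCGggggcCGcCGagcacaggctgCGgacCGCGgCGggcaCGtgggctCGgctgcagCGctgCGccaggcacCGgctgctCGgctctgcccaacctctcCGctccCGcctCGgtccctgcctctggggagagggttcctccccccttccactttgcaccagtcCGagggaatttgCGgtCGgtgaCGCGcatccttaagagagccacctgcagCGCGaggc
RUNX2 proximal, chr6:45422025-45422274, plus strand: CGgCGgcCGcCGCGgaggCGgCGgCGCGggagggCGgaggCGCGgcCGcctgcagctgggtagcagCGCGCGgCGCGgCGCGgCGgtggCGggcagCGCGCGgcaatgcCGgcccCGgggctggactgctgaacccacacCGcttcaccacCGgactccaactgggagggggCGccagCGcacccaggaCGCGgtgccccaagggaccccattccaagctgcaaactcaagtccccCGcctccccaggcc
These hold 16, 26 and 34 CpG. In windows of 300 bases, which add 50 bases after the start, the median over the 9 genes of their CpG-richest window was 32.0, beside 16.0 over 27305 genes taken the same way. PBX3 had 43 and JMJD1C 44, and ZEB2 had the fewest with 14. Genes with several entries have more chances of a rich window, and 4 of the 9 genes had several. The 27305 genes were not matched to the 9 in gene type or function, so the gap need not be particular to them.

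MEIS1 encodes a TALE homeobox factor that partners HOXA9 and is a central target of MLL fusions. Its level was 8.86 and 9.78 with control shRNA and vehicle, 9.52 and 9.97 with control shRNA and prednisolone, 5.21 and 4.88 with BTG1 shRNA and vehicle, and 4.70 and 5.36 with BTG1 shRNA and prednisolone. All control arrays lay above all arrays labelled BTG1 shRNA, where MEIS1 was below the background level in 4 of 4 cases. Under vehicle the difference was -4.28 (SE 0.36, 95% interval -5.12 to -3.43, limma adjusted p = 0.000222). Under prednisolone it was -4.72 (SE 0.36, interval -5.56 to -3.87, limma adjusted p = 0.000118).

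PBX3 encodes another TALE homeobox factor, a partner of MEIS1 on DNA. It read 7.06 and 8.26 with control shRNA and vehicle, 7.43 and 7.54 with control shRNA and prednisolone, 5.67 and 5.88 with BTG1 shRNA and vehicle, and 5.34 and 5.86 with BTG1 shRNA and prednisolone. The groups of the shRNAs did not overlap, while those of the treatments did. PBX3 lay above the background level on 3 of 4 control arrays and on 2 of 4 arrays labelled BTG1 shRNA. The size of its difference is therefore imprecise. PBX3 was lower with BTG1 shRNA by -1.89 (SE 0.38) under either treatment (limma adjusted p = 0.0137 under vehicle and 0.0116 under prednisolone). The first call ended without the first (adjusted p = 0.0834) or the second (0.0654) vehicle array labelled BTG1 shRNA, and with each array centred on its median (0.0537). The second was lost on leaving out replicate 1 of BTG1 shRNA with prednisolone (0.0809) or replicate 2 of control shRNA with prednisolone (0.0714).

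MEF2C, a MADS-box transcription factor of lymphoid and myeloid progenitors, read 10.95 and 11.30 with control shRNA and vehicle and 10.89 and 11.21 with control shRNA and prednisolone. With BTG1 shRNA it read 5.01 and 4.65 under vehicle and 4.77 and 4.81 under prednisolone. It ranked within its array at the 99.4th percentile or higher on the control arrays and no higher than the 46.0th on the others. The difference was -6.29 under vehicle and -6.26 under prednisolone (SE 0.22 for each), with limma adjusted p = 7.32e-06 and 7.37e-06.

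ZEB2, a zinc-finger repressor that binds E-box sequences, read 7.31 and 7.97, then 7.24 and 7.55, on the control arrays with vehicle and with prednisolone. On the arrays labelled BTG1 shRNA it read 3.22 and 3.10, then 3.37 and 3.26, at or below the median of the background genes in 4 of 4 cases. The difference was -4.48 (SE 0.25) under vehicle and -4.08 (SE 0.25) under prednisolone, with limma adjusted p = 3.03e-05 and 4.18e-05.

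The receptor tyrosine kinase FLT3, which drives growth of early lymphoid and myeloid progenitors, showed the widest gap between the shRNAs of the 10 genes. It read 9.72 and 10.43 with control shRNA and vehicle, 10.75 and 10.87 with control shRNA and prednisolone, 3.07 and 3.0 with BTG1 shRNA and vehicle, and 3.22 and 3.13 with BTG1 shRNA and prednisolone. Its percentile within the array was 97.9 or more on the control arrays and 16.5 or less on the others. The difference was -7.04 under vehicle and -7.63 under prednisolone (SE 0.25 for each), with limma adjusted p = 7.32e-06 and 5.06e-06, ranking 5th and 4th by size among all clusters.

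PROM1, a pentaspan membrane protein of stem and progenitor cells, read 9.32 and 10.09 with control shRNA and vehicle and 10.15 and 10.84 with control shRNA and prednisolone. It read 2.82, 2.81, 3.10 and 2.82 on the 4 arrays labelled BTG1 shRNA, vehicle first. PROM1 differed by -6.89 (SE 0.32) under vehicle and -7.53 (SE 0.32) under prednisolone (limma adjusted p = 1.55e-05 and 1.10e-05). FLT3 and PROM1 lay at or below the median of the background genes on 4 of 4 arrays labelled BTG1 shRNA. ZEB2, MEF2C, MEIS1 and CSPG4 were also below the background level on all 4, which leaves the size of these 6 differences imprecise.

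LGALS1 encodes galectin-1, a secreted lectin that is used as a marker of MLL-rearranged B-cell precursor leukemia. It read 8.61 and 8.27 with control shRNA and vehicle, 8.16 and 7.77 with control shRNA and prednisolone, 6.01 and 5.86 with BTG1 shRNA and vehicle, and 6.09 and 5.71 with BTG1 shRNA and prednisolone. No array labelled BTG1 shRNA reached the control arrays. LGALS1 lay above the background level on 4 of 4 control arrays but on 1 of 4 labelled BTG1 shRNA, so the size of its difference is imprecise. The difference was -2.50 under vehicle and -2.06 under prednisolone (SE 0.23 for each), with limma adjusted p = 0.000312 and 0.000719.

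JMJD1C, a jumonji-domain protein linked to demethylation of histone H3 lysine 9, read 7.53 and 8.75 with control shRNA and vehicle and 9.14 and 9.50 with control shRNA and prednisolone. It read 6.85 and 7.42 with BTG1 shRNA and vehicle and 6.83 and 7.30 with BTG1 shRNA and prednisolone. It was the only one of the 10 genes above the background level on 4 of 4 arrays labelled BTG1 shRNA, and the shRNA groups did not overlap under either treatment. The difference under vehicle was -1.01 (SE 0.41, 95% interval -1.97 to -0.05) and did not pass (limma adjusted p = 0.162). It was -1.62 and passed without the first control vehicle array (adjusted p = 0.0203), but -0.39 without the second (adjusted p = 0.344) and -0.72 without the first vehicle array labelled BTG1 shRNA (adjusted p = 0.410). Under prednisolone it was -2.25 (SE 0.41, adjusted p = 0.00774), and this call was lost on leaving out replicate 1 of BTG1 shRNA with prednisolone (adjusted p = 0.0568) or replicate 2 of control shRNA with prednisolone (0.0590). The second JMJD1C cluster, which also carries the antisense gene JMJD1C-AS1, gave -0.68 (SE 0.33) under vehicle and -1.20 (SE 0.33) under prednisolone, with limma adjusted p = 0.221 and 0.0422. This cluster lay above the background level only on the 2 control arrays with prednisolone, so the size of these differences is imprecise. Its control vehicle arrays read 6.59 and 5.66, in the reverse order to the cluster used.

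RUNX2 and CSPG4 were called between the shRNAs and also with prednisolone, the latter only in control cells and near the threshold. RUNX2, a Runt-domain factor known from bone formation and also expressed in lymphoid progenitors, was lower with BTG1 shRNA by -1.27 under vehicle and by -1.40 under prednisolone (SE 0.18 for each), with limma adjusted p = 0.00272 and 0.00145. CSPG4, a surface chondroitin sulfate proteoglycan used to diagnose MLL-rearranged leukemia, was lower by -3.95 and by -1.87 (SE 0.32 for each), with limma adjusted p = 0.000184 and 0.0058. Under prednisolone all 4 CSPG4 values lay below the background level, with either shRNA.

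RUNX2 and CSPG4 are shown for their prednisolone difference. The first window is the distal start of RUNX2, with each RUNX site (TGTGGT on either strand) in capitals, and the second is CSPG4, with the half-site of the glucocorticoid response element (TGTTCT on either strand) in capitals:
RUNX2 distal, chr6:45328080-45328329, plus strand: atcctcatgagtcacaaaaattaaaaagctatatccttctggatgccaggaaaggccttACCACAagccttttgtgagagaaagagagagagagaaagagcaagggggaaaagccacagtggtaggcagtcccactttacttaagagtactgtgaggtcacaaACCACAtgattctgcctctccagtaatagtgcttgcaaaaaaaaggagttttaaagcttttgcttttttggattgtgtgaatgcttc
CSPG4, chr15:75712849-75713098, minus strand: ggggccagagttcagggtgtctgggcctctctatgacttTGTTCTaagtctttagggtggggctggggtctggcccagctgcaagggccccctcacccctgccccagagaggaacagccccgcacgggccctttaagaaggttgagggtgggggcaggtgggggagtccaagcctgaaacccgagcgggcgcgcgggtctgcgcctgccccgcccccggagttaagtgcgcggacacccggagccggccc
The distal RUNX2 window holds 2 RUNX sites upstream and 4 within 300 bases, and 0 CpG upstream. A RUNX site occurs in 13.1% of all 35116 windows of 300 bases and in 3 of the 21 windows of these genes. The CSPG4 window holds 1 half-site, and neither RUNX2 window holds any. A half-site occurs in 14.8% of all windows and in 4 of 21 here, and the full palindrome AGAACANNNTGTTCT in 0 of 21. The TALE site TGACAG occurs in 15.8% of all windows and in 4 of 21 here, in MEF2C and PBX3. These are letter matches, not measured binding, and the array value of RUNX2 does not separate its starts.

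Counted together, 9 of the 10 genes were lower at adjusted p below 0.05 with BTG1 shRNA under vehicle and 10 of 10 under prednisolone, and 0 were higher. Over all clusters 6.21% were called lower and 8.46% higher under vehicle (14.7% either way), and 7.51% lower under prednisolone (17.5% either way, 1791 clusters higher). The median of the 10 genes was -4.11 under vehicle and -3.17 under prednisolone, beside -0.15 and 0.04 over all clusters. The arrays did not overlap, with BTG1 shRNA lower, for 10 of 10 genes under each treatment, against 34.3% and 21.5% of all clusters. With BTG1 shRNA wholly higher the counts were 0 of 10 and the shares of all clusters 24.5% and 28.4%. Differences ranged from -7.04 to -1.01 under vehicle and from -7.63 to -1.40 under prednisolone. FLT3, PROM1 and MEF2C had the widest differences under each treatment and RUNX2 the smallest of those that passed. In bulk samples fewer cells of a type and less RNA per cell cannot be told apart. These values moved together with the loss of B-lineage and the rise of T-lineage markers given above, and the part of that shift in the result was not tested.

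**Figure D2:**
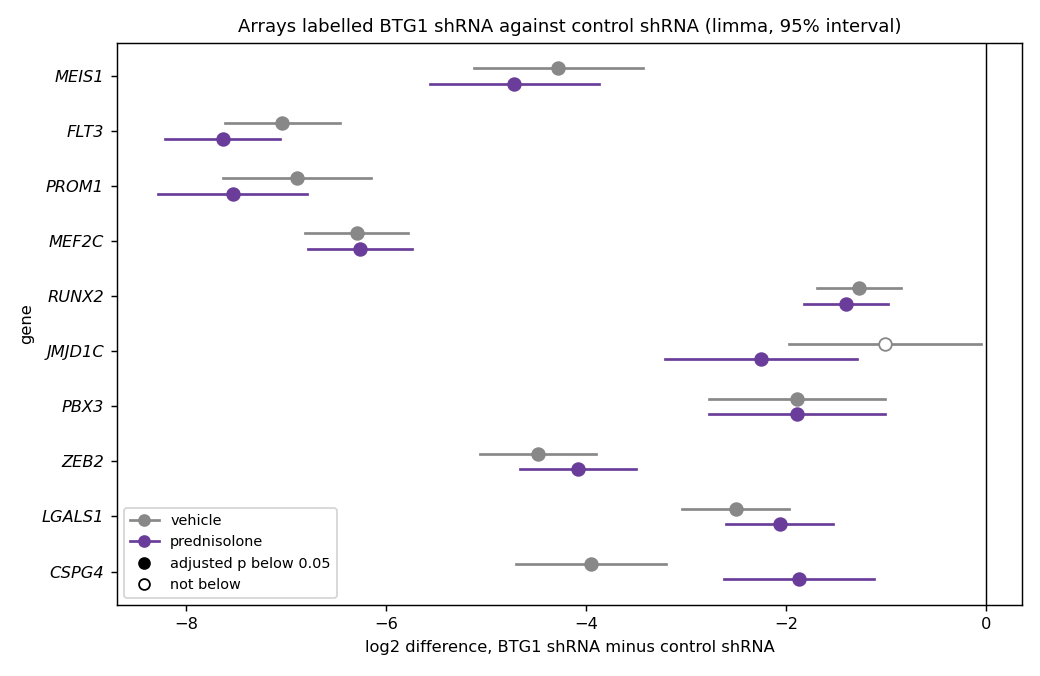
Difference between arrays labelled BTG1 shRNA and control shRNA (horizontal axis, log2) for each gene, under vehicle (grey) and prednisolone (purple); points are limma estimates, bars 95% intervals, and filled points have an adjusted p below 0.05. All 20 estimates lie below 0, and JMJD1C under vehicle is the only one that did not pass.

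With prednisolone 1 of the 10 genes rose and 1 fell in control cells. CSPG4 read 7.84 and 8.16 with vehicle and 6.23 and 5.92 with prednisolone. Both prednisolone arrays lay below both vehicle arrays and below the background level. CSPG4 fell by 1.93 on the log2 scale (SE 0.32, 95% interval -2.68 to -1.18, limma adjusted p = 0.0347). RUNX2 read 7.41 and 7.35 with vehicle and 8.30 and 8.57 with prednisolone, with no overlap. It rose by 1.06 (SE 0.18, interval 0.64 to 1.48, limma adjusted p = 0.0381), a 2.08-fold change. Over all clusters 1.52% were called, 0.928% higher and 0.587% lower.

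These 2 calls lay near the threshold. The CSPG4 call ended without any 1 of the 4 control arrays (adjusted p = 0.0531 to 0.304), and the RUNX2 call without any 1 array other than the second control vehicle array (adjusted p = 0.0898 to 0.386), though the differences stayed between -2.09 and -1.77 and between 0.91 and 1.19 over all alternatives. Fitted to the 4 control arrays alone, without the arrays labelled BTG1 shRNA, CSPG4 had an adjusted p of 0.0736 and RUNX2 of 0.264 at the same differences.

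The other 8 genes did not pass in control cells. JMJD1C stood at 1.18 (SE 0.41, limma adjusted p = 0.268), PROM1 at 0.79 (SE 0.32, adjusted p = 0.330) and FLT3 at 0.74 (SE 0.25, adjusted p = 0.245), each with both prednisolone arrays above both vehicle arrays. FLT3 stood at 1.10 and JMJD1C at 1.79 without the second control vehicle array, and both then passed (adjusted p = 0.0368 and 0.0419). Without the first control vehicle array FLT3 stood at 0.38 and JMJD1C at 0.57 (adjusted p = 0.687 and 0.825). PROM1 ranged from 0.41 to 1.18 as single arrays were left out and did not pass in any of these fits. The second JMJD1C cluster stood at 0.57 (SE 0.33, limma adjusted p = 0.459), with both vehicle arrays below the background level. LGALS1 stood at -0.47 (SE 0.23, adjusted p = 0.402) with no overlap. MEIS1 (0.43), MEF2C (-0.07), PBX3 (-0.17) and ZEB2 (-0.25) had overlapping arrays. Of the 10 genes, 4 had prednisolone arrays wholly above the vehicle arrays and 2 wholly below, against 15.3% and 26.4% of all clusters. Clusters as a whole had a median of -0.16 in the values used and -0.05 once quantile-normalized, and the median of the 10 genes was 0.18. Small negative values are to be read against that shift.

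On the arrays labelled BTG1 shRNA, RUNX2 again stood higher with prednisolone. It read 6.21 and 6.01 with vehicle and 7.04 and 7.03 with prednisolone. The groups did not overlap and the difference was 0.93 (SE 0.18, 95% interval 0.50 to 1.35), the 49th largest in size of 17881 clusters. It did not pass the adjustment (limma adjusted p = 1.0, unadjusted p = 0.00109). In this comparison limma called 0 of 17881 clusters, 0%, while 186 had an unadjusted p below 0.05, and limma with an intensity trend called 0 of the 10 genes. Of the 10 genes, 4 had prednisolone arrays wholly above the vehicle arrays and 0 wholly below, against 18.0% and 10.5% of all clusters. The 4 were RUNX2, FLT3, PROM1 and ZEB2, of which the last 3 read at or below the median of the background genes on all 4 of these arrays. The difference between the RUNX2 responses of the shRNAs was -0.13 (SE 0.25, interval -0.73 to 0.46, adjusted p = 0.760), so the responses differed by less than the spread between arrays, which does not show that they are equal.

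CSPG4 read 4.42 and 3.69 with vehicle and 4.54 and 3.87 with prednisolone on the arrays labelled BTG1 shRNA, all below the background level. The groups overlapped, with a difference of 0.15 (SE 0.32, 95% interval -0.60 to 0.90). The difference of the CSPG4 responses was 2.08 (SE 0.45, interval 1.02 to 3.14), and it did not pass (limma adjusted p = 0.216, unadjusted 0.00214). At levels this low, a fall of the size seen in control cells could hardly show on the arrays labelled BTG1 shRNA. The part of background in this difference was not tested. JMJD1C had the next largest difference of responses in size, at -1.25 (SE 0.58, adjusted p = 0.537). None of the 10 genes passed for the difference of responses, where limma called 0.134% of all clusters (0.0280% higher and 0.106% lower) and 1 of the 10 genes, CSPG4, had an unadjusted p below 0.05. For prednisolone on the arrays labelled BTG1 shRNA, the 8 genes other than RUNX2 and CSPG4 stood between -0.18 and 0.16.

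**Figure D3:**
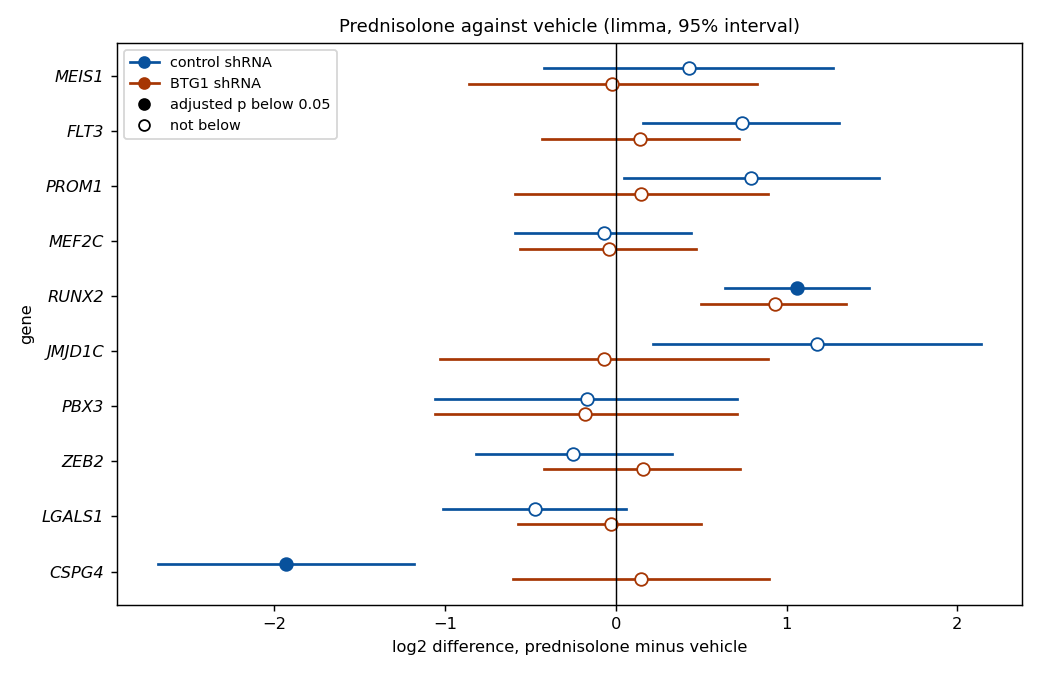
Difference between prednisolone and vehicle (horizontal axis, log2) for each gene with control shRNA (blue) and BTG1 shRNA (brown); points are limma estimates, bars 95% intervals, and filled points have an adjusted p below 0.05. RUNX2 stands near 1 with both shRNAs, and CSPG4 is at -1.93 with control shRNA. With BTG1 shRNA CSPG4 is at 0.15, where all its arrays lay below the background level.

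The order of the 4 groups followed from these values. Under each treatment and across treatments, every control mean lay above every mean of the arrays labelled BTG1 shRNA. For MEIS1, FLT3, PROM1, MEF2C, PBX3, ZEB2 and LGALS1 the 2 control groups were neighbours whose difference did not pass the test, as were the 2 BTG1 shRNA groups, and the step between them passed. In the diagonal comparison of control shRNA with prednisolone against BTG1 shRNA with vehicle, used for MEF2C, PBX3 and LGALS1, 18.1% of all clusters were called. JMJD1C passed at no step between neighbours. CSPG4 fell in steps that passed from control vehicle (8.00) to control prednisolone (6.07) and from there to BTG1 shRNA with prednisolone (4.20). Both groups of the second step lay below the background level for CSPG4, so its size is imprecise. For RUNX2 the order was control prednisolone (8.43), control vehicle (7.38), BTG1 shRNA with prednisolone (7.03) and BTG1 shRNA with vehicle (6.11). The 2 middle RUNX2 groups differed by 0.34 (SE 0.18, limma adjusted p = 0.326, in a comparison that called 13.0% of all clusters).

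Among 22 other reported targets of MLL fusions, 8 were lower and 1 higher with BTG1 shRNA under vehicle, and 9 were lower and 3 higher under prednisolone, with medians of -0.33 and -0.46. The shares called over all clusters were 14.7% and 17.5%. ERG, an ETS factor of blood stem cells, was lower by -4.90 (SE 0.23) under each treatment, and the adhesion receptor CD44 by -3.72 (SE 0.19) and -3.38 (SE 0.19). The RNA-binding protein IGF2BP2 was lower by -3.27 (SE 0.30) and -4.71 (SE 0.30), and CPEB2, which controls mRNA translation, by -3.14 (SE 0.37) under prednisolone. Under vehicle CPEB2 was also called lower, at -1.91, with both groups below the background level. SATB1, a chromatin organiser of thymocytes, was higher by 3.56 (SE 0.33) under vehicle and was also called higher under prednisolone, at 2.74. ERG, CD44, IGF2BP2 and CPEB2 lay below the background level on all 4 arrays labelled BTG1 shRNA. CD44 also lay below it on control vehicle replicate 1 (6.64) and control prednisolone replicate 2 (6.43), so the size of its difference is imprecise. Each difference given here with an SE for these 5 genes had a limma adjusted p of 0.000928 or less.

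In the control groups IGF2BP2 read 6.76 and 7.44 with vehicle and 8.31 and 9.0 with prednisolone, and CPEB2 read 5.47 and 6.21, then 6.66 and 7.72. The background level of the control vehicle arrays was 7.10 and 6.32. Both CPEB2 values and the first IGF2BP2 value with vehicle lay below it, so the size of these rises is imprecise. For both genes the prednisolone arrays lay wholly above the vehicle arrays, as in 15.3% of all clusters, while 26.4% lay wholly below. Both were named for large differences between the shRNAs under prednisolone, which use the same control prednisolone arrays. Their rise is therefore not independent of how they were picked. The 22 targets had a median of -0.11 here, beside -0.16 over all clusters, so IGF2BP2 and CPEB2 do not stand for the list. In control cells 0 of the 22 targets passed for prednisolone, and 9 had an unadjusted limma p below 0.05, beside 14.1% of all clusters. On the arrays labelled BTG1 shRNA 0 passed as well, with 1 at an unadjusted p below 0.05, against 1.04% of all clusters.

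Among 18 fusion partners and cofactors of MLL, 2 were higher and 1 lower under vehicle, and 2 were higher and 2 lower under prednisolone, with medians of 0.16 and -0.23. These shares lie near the 14.7% and 17.5% called over all clusters. MLLT3, a partner of MLL in myeloid leukemia, was higher by 2.74 (SE 0.21) and 2.77 (SE 0.21), from 2.79 to 3.05 on the control arrays to 5.44 to 5.92 on the others. All 4 control arrays and 3 of the 4 others lay below the background level for MLLT3, so the size of this difference is imprecise. AFF1, the fusion partner in RS4;11, was lower by -1.74 (SE 0.30, limma adjusted p = 0.00553) under prednisolone, and stood at -1.0 under vehicle, which did not pass. It read 8.45, 8.91, 9.08 and 9.35 on the control arrays and 7.81, 7.55, 7.10 and 7.86 on the others. The array value does not tell AFF1 from a fusion transcript. The cluster of the elongation kinase CDK9 and MIR2861 was lower by -1.08 (SE 0.19) and -1.21 (SE 0.19), and that of ASH2L, a subunit of MLL complexes, and STAR was higher by 1.23 (SE 0.22) and 0.90 (SE 0.22). With prednisolone 0 of the 18 passed under either shRNA, with 4 and 0 at an unadjusted limma p below 0.05, where the shares of all clusters were 14.1% and 1.04%. Of 14 listed HOXA genes and TALE partners only 4 had a cluster, HOXA2, PBX2, PKNOX1 and MEIS2. On each array 0 to 2 of these 4 lay above the background level, so a lack of calls says little about the list. None passed limma in any of the 5 comparisons, with 0 to 2 at an unadjusted p below 0.05, beside 1.04% to 28.1% of all clusters.

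**Figure D4:**
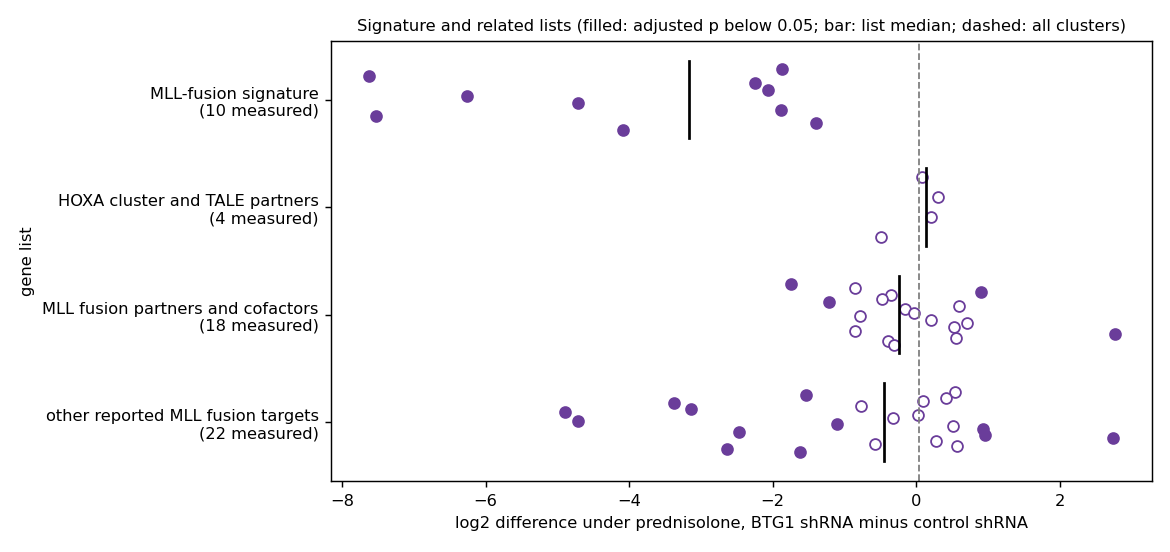
Difference between arrays labelled BTG1 shRNA and control shRNA under prednisolone (horizontal axis, log2) for the 10 signature genes and the measured genes of 3 related lists; each point is a gene, filled where the adjusted p is below 0.05, with the list median as a bar and the median of all clusters dashed. The signature lies wholly below 0, at -7.63 to -1.40, while the other lists spread to both sides.

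The clusters most like the signature over the 8 arrays were those of PLXNC1 (r = 0.999), VPREB3, GOLIM4, KCNQ5 and HLA-DPB1 (r = 0.998 each), by Pearson correlation with the mean of the 10 standardised profiles. The 8 arrays share the division between the shRNAs, and 3.01% of 14422 other clusters with 1 symbol had r over 0.95. PLXNC1 read 7.61 to 8.36 on the control arrays and 3.75 to 3.92 on the others. VPREB3, a pre-B-cell protein, read 6.50 to 6.95 and 3.22 to 3.45. Within the signature r was lowest for RUNX2 (0.829), JMJD1C (0.868) and CSPG4 (0.873) and at least 0.957 for the other 7. The mean profile includes each of the 10 genes itself, so these r are not comparable with those of other clusters.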

How the data were processed

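Total RNA of 8 samples was labelled with biotin and hybridised to Affymetrix Human Exon arrays, with probes summarised over core meta-probe sets, per the labels. Per the submitters' processing notes, RMA and Partek were used, with settings not stated. What the authors deposited are log2 expression values of 17881 transcript clusters that have mostly lost their decimal point, whereas plain log2 values had been assumed in planning the tests. Of 143048 values 153 kept a point. Elsewhere it was restored behind digit 1, or behind digit 2 in the 2831 values starting with 1, of which 0 started with 14 to 19. Correlations between arrays rose from 0.446 to 0.587 to 0.872 to 0.995. The tests were then run as planned, with no further normalization and no filter. Symbols came from the platform annotation, in which 14432 clusters have 1 symbol, 2408 several and 1041 none.

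A linear model with 1 mean per group was fitted over the 8 arrays in limma 3.58.1 (R 4.3.3; 4 residual and 3.51 prior degrees of freedom). Each contrast was adjusted by the Benjamini-Hochberg method across its 17881 clusters, and an adjusted p below 0.05 counted as a call. The script was tested on simulated data. The 10 genes are all named, with up to 4 called genes of each related list, the lineage and label checks, and the 5 most similar clusters. The genes and lists were chosen with earlier results of these data known.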

Additional observations from a re-analysis of the deposited data

How the results depend on the processing

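Each of the 50 results for a gene in a comparison was recomputed by leaving out each of the 8 arrays and under 7 other settings, which were quantile normalization, centring each array on its median, leaving out the lower quartile of clusters, an intensity trend, a replicate block, only the 4 arrays compared (not possible for the difference of responses) and single-symbol clusters. In the 300 such values for BTG1 shRNA against control shRNA, all kept their direction. The count of genes called there was 8 to 10 under vehicle and 8 to 10 under prednisolone as single arrays were left out.

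For prednisolone in control cells, the count of 2 became 1 with centring, the trend, the filter or quantile normalization, 0 with the 4 control arrays alone, and 0 to 3 as single arrays were left out. With fewer arrays the spread rests on fewer degrees of freedom, and the cause of the other changes was not tested. For prednisolone on the arrays labelled BTG1 shRNA and for the difference of responses it was 0 throughout. The same replicate numbers occur in each group, but no label ties them to a culture or a day. The correlation of replicate differences between groups was 0.01 to 0.59 with only 2 numbers, so they were not treated as pairs. With the replicate block, prednisolone in control cells gave 3 called genes, and JMJD1C passed there at 1.18 (limma adjusted p = 0.0400) and for the shRNAs under vehicle at -1.01 (adjusted p = 0.0204). It changed no other call. The shares of all clusters called are given only for the fit without these changes of setting or array. Whether the counts of called genes moved with the call rate of all clusters was therefore not tested, for any of the comparisons.

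A sign changed in 29 values, 0 of them called. Leaving out single arrays moved prednisolone in control cells between -0.03 and 0.89 for MEIS1, -0.25 and 0.10 for MEF2C, -0.77 and 0.43 for PBX3, and -0.57 and 0.08 for ZEB2. On the arrays labelled BTG1 shRNA it moved between -0.34 and 0.31 for MEIS1, -0.22 and 0.14 for MEF2C, -0.35 and 0.22 for JMJD1C, -0.44 and 0.09 for PBX3, -0.22 and 0.15 for LGALS1, and -0.22 and 0.52 for CSPG4. The difference of responses moved between -0.90 and 0.02 for MEIS1, -0.15 and 0.22 for MEF2C, -0.27 and 0.00 for RUNX2, and -0.60 and 0.60 for PBX3. Centring turned MEF2C to 0.05 for prednisolone in control cells and to -0.14 for the difference of responses, where quantile normalization gave -0.04 for MEF2C, 0.05 for RUNX2 and 0.06 for PBX3. The second JMJD1C cluster, tried after seeing the data, gave 0.04 for prednisolone on the arrays labelled BTG1 shRNA. The causes were not tested. No detection call was available, so levels near background set a limit on the size of every large difference.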
